A study of Mus musculus with 18 samples.

Results

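Whole testis and whole brain of wild type (WT) mice were compared gene by gene. The testis is built around the germ line: spermatogonia divide and enter meiosis, spermatocytes recombine their chromosomes, and round spermatids are remodelled into sperm with a condensed nucleus, an acrosome and a tail, while Sertoli cells nurse them and Leydig cells make testosterone. The brain consists of neurons, which signal across synapses, and of glia, among them the myelinating oligodendrocytes and the astrocytes that clear glutamate. Both tissues contain a barrier to the blood and both are known for transcribing many genes.

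The comparison took 3 WT testis libraries and 3 WT brain libraries, 6 of the 18 libraries of a study of Pcgf6, which belongs to the polycomb complex PRC1.6. Every one of the 6 was labelled as poly-A RNA from adult male C57BL/6 mice aged 8 weeks, with the normal Pcgf6 alleles and no treatment. The labels name whole organs, with no sorting of cells or dissected region, and do not say whether the 3 libraries of a tissue came from separate animals. The p-values therefore measure only the spread between these libraries, which may be technical. In such bulk samples, fewer cells of a type and less RNA per cell cannot be told apart.

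The 3 testis libraries held 21869125, 23335596 and 20098777 reads in genes, and the 3 brain libraries held 23183662, 22022320 and 22058362. Levels are given as TPM, which divides reads by gene length and then scales each library to the same sum, so that a level is a share of the library and not an amount per cell. Replicate libraries stood close to each other, with a Pearson correlation across tested genes of 0.9746 to 0.9886 within testis and 0.9821 to 0.9863 within brain, while testis and brain libraries correlated at 0.182 to 0.225. A pair of libraries stood apart in part of their genes. Testis 3 carried more RNA of epididymis, Sertoli, stromal and blood cell genes than testis 1 and testis 2, and less of the spermatid chromatin genes. Brain 3 carried more reads of the most abundant testis genes than brain 1 and brain 2, more Alb and Gapdh, and less RNA of cerebellar genes. Their values are given beside the results that they touch.

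Of 52636 genes, 22836 reached 10 reads in 3 or more of the 6 libraries and were tested with limma on log2(TPM + 0.1). At a Benjamini-Hochberg adjusted p under 0.05, 19865 genes (87.0%) were called different between testis and brain. Of the tested genes, 9642 (42.2%) were higher in testis and 10223 (44.8%) were lower. Among the called genes, 5443 were estimated at least 8-fold higher in testis (23.8% of tested genes) and 3271 at least 8-fold lower (14.3%). The test itself was against no difference, so the 8-fold size is an estimate. These 4 percentages are the background for all counts below. The 95% interval of the log2 difference lay within 0.5 of 0 for 970 genes, so only 4.25% of tested genes were shown to be at about the same share of both tissues. The median log2 difference, testis minus brain, was −0.12. On the deposited scale, which sets both tissues by size factors, the median was 0.42 and the calls were 11450 higher and 8204 lower, so the sign of a small log2 difference depends on the scaling.

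At one extreme were the genes of spermatid chromatin, on top in testis. After meiosis the histones are replaced first by transition proteins (Tnp1, Tnp2) and then by protamines (Prm1, Prm2), small basic proteins that pack the sperm nucleus. Prm1, on mm10 chromosome 16 from 10796326 to 10796886, was the most abundant nuclear transcript in testis at 21730, 23529 and 18275 TPM, against 2.34, 2.08 and 12.1 TPM in brain. Tnp2 reached 21144, 21154 and 16408 TPM in testis, against 0.285, 0 and 7.29 TPM in brain, and Prm2 reached 15083, 14484 and 10166 TPM in testis, against 0, 0 and 3.91 TPM in brain. Every testis library lay above every brain library by orders of magnitude, and in each of these genes testis 3 was the lowest testis library and brain 3 the highest brain library. The log2 difference of Prm1 was 12.36 ± 0.65 (SE, limma, adjusted p = 2.85e-06), and 13.16 without brain 3. Tnp1, on chromosome 1, measured 13432, 12498 and 8478 TPM in testis and 0.358, 0 and 2.67 TPM in brain. Prm3, a relative of the protamines, had 793, 822 and 679 TPM in testis and no read in any brain library, which puts it at least 646-fold higher in testis with a floor of 3 reads per library. Bounds of this kind cover counting error only. Of 18 tested members of the spermatid chromatin list, 15 were higher in testis, 13 of them by at least 8-fold, and 1 was lower. The lower member was Bptf, a chromatin remodelling subunit expressed in many tissues, at 27.0, 27.0 and 14.2 TPM in testis and 41.7, 39.3 and 39.1 TPM in brain. Together these genes supplied 77221, 77579 and 58742 TPM of the testis libraries and 480, 474 and 529 TPM of the brain libraries.

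The 250 bases before the gene start of Tnp2 are shown because Tnp2 is the second most abundant nuclear gene of testis and nearly silent in brain. The sequence is from RefSeq, build GRCm38.p6, the assembly that mm10 names, at chr16:10788656-10788905 on the minus strand, 5′ to 3′, with CG dinucleotides, the sites of DNA methylation, in capitals.
Tnp2: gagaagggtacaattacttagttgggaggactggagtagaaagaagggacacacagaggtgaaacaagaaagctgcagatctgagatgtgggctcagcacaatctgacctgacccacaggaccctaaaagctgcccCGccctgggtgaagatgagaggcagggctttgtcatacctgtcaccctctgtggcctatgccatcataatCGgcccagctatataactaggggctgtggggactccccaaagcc
The window holds 2 CG dinucleotides, and 29.0% of the 32851 RefSeq windows of the same length hold as many or fewer, with a median of 6 over all windows. The CG content of the genes that differed was not compared as a set, because windows were matched for fewer than 80% of the genes of each class (73.9% of protein-coding genes at least 8-fold higher in testis and 72.2% of those at least 8-fold lower).

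**Figure D1:**
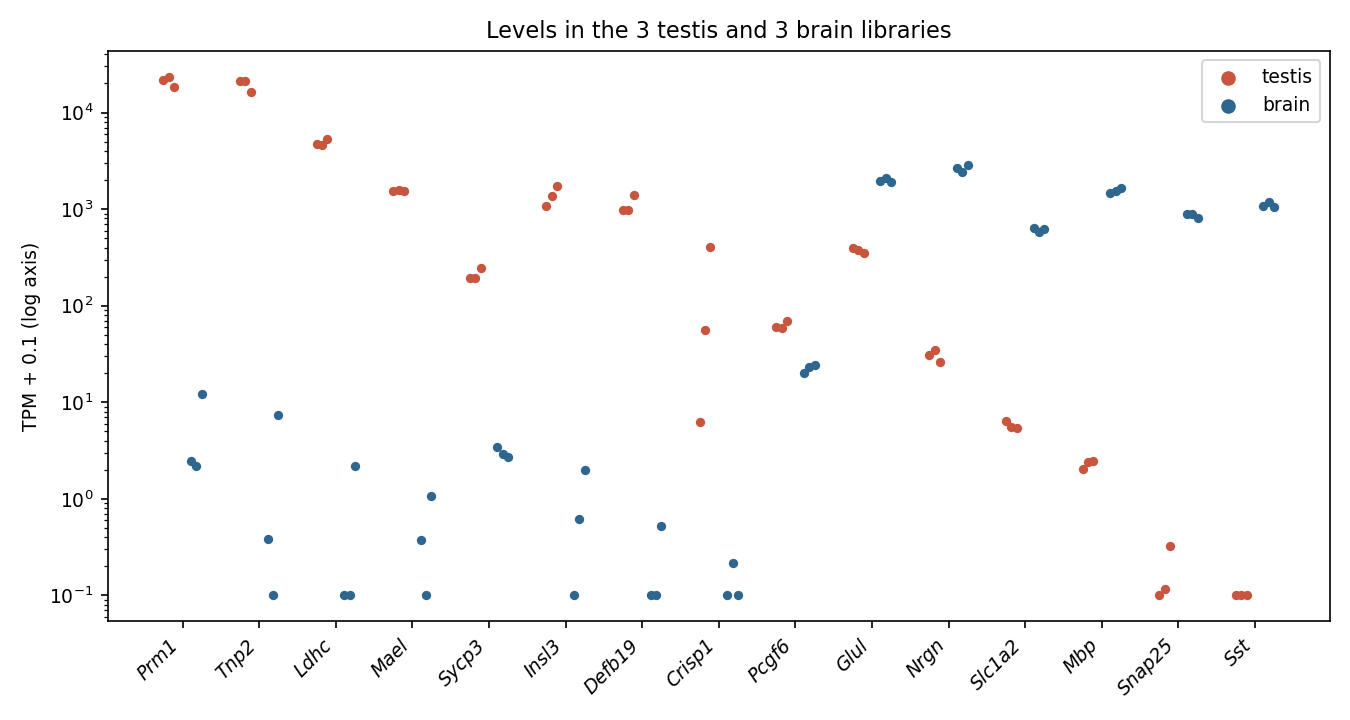
Level of 15 genes in each of the 3 testis libraries (red) and 3 brain libraries (blue), as TPM plus 0.1 on a log axis. Each point is 1 library. Prm1 sits between 18275 and 23529 TPM in testis and between 2.08 and 12.1 TPM in brain, Sst lies on the floor of the axis in testis and at 1047 to 1185 TPM in brain, and Crisp1 spreads from 6.10 to 408 TPM among the testis libraries.

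The genes of sperm structures followed. The acrosome is the enzyme sac on the sperm head, the flagellum its tail, and CatSper the calcium channel of that tail. Of 27 acrosome and egg binding genes 26 were at least 8-fold higher in testis, with a median log2 difference of 9.81, the highest of the 40 gene lists that were examined. Crisp2, a secreted protein of the acrosome and tail, had 2026, 1963 and 1824 TPM in testis, against 0, 0 and 1.19 TPM in brain. Zpbp2, a zona pellucida binding protein, had 407, 392 and 388 TPM in testis and 0.372, 0.0965 and 0.693 TPM in brain. Gopc, a Golgi protein needed for acrosome formation that is also widely expressed, was the 1 member lower in testis, at 9.28, 9.80 and 8.82 TPM against 21.4, 21.8 and 22.2 TPM in brain.

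Of 44 axoneme and flagellum genes, 42 were higher in testis, 38 of them by at least 8-fold. Odf1, an outer dense fibre protein, had 3045, 2872 and 2134 TPM in testis, and in brain 0, 0 and 0.905 TPM. Smcp, the mitochondrial capsule protein of the midpiece, had 3968, 3939 and 2924 TPM in testis, and in brain 0, 0 and 1.83 TPM. Neither gene had a read in brain 1 or brain 2, while brain 3 had 6 reads of Odf1 and 10 of Smcp. Rsph1, a radial spoke protein of motile cilia, was not silent in brain. It had 1950, 1996 and 2320 TPM in testis and 14.2, 14.9 and 11.0 TPM in brain. Dnah5, a heavy chain of the outer dynein arm, was the 1 member lower in testis, at 0.981, 0.999 and 0.596 TPM against 1.56, 1.32 and 1.68 TPM in brain; its call was lost without brain 1 (adjusted p = 0.0559) and without brain 3 (adjusted p = 0.0604, both limma).

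Among sperm ion channels and pumps 15 of 16 genes were at least 8-fold higher in testis. Atp1a4, the sodium pump subunit of sperm, had 517, 510 and 335 TPM in testis, and 0.0853, 0.133 and 0.318 TPM in brain. Catsperz, an accessory CatSper subunit, had 733, 727 and 769 TPM in testis and 19.6, 17.7 and 22.2 TPM in brain, and Catsper2 had 208, 203 and 220 TPM in testis and 4.23, 4.48 and 5.19 TPM in brain. These CatSper genes thus kept a low level in all 3 brain libraries. The proton channel Hvcn1 was lower in testis, at 0.444, 0.352 and 0.707 TPM, against 1.98, 0.957 and 1.12 TPM in brain.

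The earlier germ cell programmes were also higher in testis, with the spermatogonial list as the exception. Of 42 genes of meiotic chromosomes and recombination, 38 were higher in testis and 2 lower, with a median log2 difference of 5.11. Syce1, a central element protein of the synaptonemal complex, had 488, 493 and 540 TPM in testis and 0.965, 0.445 and 0.457 TPM in brain. Sycp3, a component of the chromosome axis, had 193, 192 and 246 TPM in testis and 3.34, 2.83 and 2.64 TPM in brain, a log2 difference of 6.11 ± 0.14 (SE, limma, adjusted p = 8.56e-08). The testis values of both genes were tight and far from those of brain. The 2 lower members were Mei4, needed for meiotic double-strand breaks, at 0.384, 0.304 and 0.336 TPM in testis and 1.25, 1.38 and 0.809 TPM in brain, and Ythdc2, an RNA helicase that promotes entry into meiosis, at 11.4, 11.6 and 10.1 TPM in testis and 17.1, 16.7 and 18.7 TPM in brain.

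The piRNA pathway silences transposons in the germ line through PIWI proteins and small RNAs. Of its 23 genes, 22 were higher in testis, 19 of them by at least 8-fold. Mael, which acts in transposon silencing, had 1536, 1565 and 1558 TPM in testis and 0.271, 0 and 0.962 TPM in brain. Piwil1, a PIWI protein of spermatocytes and spermatids, had 325, 324 and 273 TPM in testis and 0.108, 0.261 and 0.153 TPM in brain, and Ddx4, the germ cell helicase Vasa, had 496, 466 and 455 TPM in testis and 3.01, 1.83 and 4.31 TPM in brain. The 3 testis libraries were close to each other and far above brain in these 3 genes. Tdrkh, a tudor protein that is also expressed outside the germ line, measured 16.8, 18.3 and 17.6 TPM in testis and 20.1, 21.6 and 20.9 TPM in brain. Its log2 difference of −0.24 changed sign to 0.32 on the deposited scale, and its call was lost without brain 2, without brain 3 and without testis 1 (adjusted p = 0.0867, 0.0601 and 0.0593, limma).

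Of 23 transcription and RNA regulators of germ cells, 19 were higher in testis and 3 lower. Ybx2, a protein that stores mRNA in spermatids, had 3500, 3517 and 3655 TPM in testis and 10.04, 9.30 and 11.1 TPM in brain. Papolb, a testis poly(A) polymerase, had 438, 435 and 349 TPM in testis and 0.332, 0.345 and 0.708 TPM in brain. The RNA-binding proteins Celf1 and Msi2, which also act in the nervous system, were lower in testis: Celf1 had 30.8, 29.3 and 25.4 TPM in testis and 99.5, 99.9 and 104 TPM in brain.

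The spermatogonial list was split, with 10 of 19 tested genes higher in testis and 9 lower. Dmrtb1, a regulator of the switch from mitosis to meiosis, had 807, 805 and 698 TPM in testis and 1.20, 1.56 and 1.68 TPM in brain. Uchl1, a ubiquitin hydrolase that marks both spermatogonia and neurons, had 70.5, 74.9 and 97.8 TPM in testis and 1119, 1001 and 964 TPM in brain. Etv5, a transcription factor of stem spermatogonia, had 20.5, 19.6 and 21.3 TPM in testis and 104, 101 and 105 TPM in brain, and Id4, another stem cell marker in the testis, had 36.4, 36.9 and 57.5 TPM in testis and 142, 162 and 140 TPM in brain. Uchl1, Etv5 and Id4, all also known from neural cells, were thus lower in testis as a share of the whole tissue.

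Cell division genes were mostly higher in testis, 25 of 30, and 4 were lower. Ccnb2, a mitotic cyclin, had 229, 226 and 254 TPM in testis and 2.76, 2.86 and 1.52 TPM in brain, and the kinase Aurka had 138, 137 and 162 TPM in testis and 4.14, 2.76 and 2.11 TPM in brain. The inhibitors of division Cdkn1a and Cdkn1b were lower in testis, Cdkn1b at 11.3, 12.5 and 12.3 TPM against 53.2, 56.5 and 59.3 TPM in brain.

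Somatic cells of the testis were visible too. Of 22 Sertoli cell genes, 17 were higher in testis and 3 lower, and of 13 tested Leydig cell genes, 12 were higher and 1 lower. Defb19, a defensin made by Sertoli cells, had 974, 981 and 1393 TPM in testis and 0, 0 and 0.423 TPM in brain. Insl3, a Leydig cell hormone, had 1071, 1377 and 1743 TPM in testis and 0, 0.521 and 1.87 TPM in brain, and Cyp17a1, an enzyme of androgen synthesis, had 169, 199 and 307 TPM in testis and 0.144, 0 and 0.231 TPM in brain. Testis 3 was the highest library in each of these 3 genes. Clu, a secreted chaperone abundant in Sertoli cells and in astrocytes, measured 799, 826 and 1143 TPM in testis and 727, 691 and 742 TPM in brain, and did not pass the test (adjusted p = 0.0780, limma); without testis 3 it was called, at a log2 difference of 0.17 (adjusted p = 0.0240). Cldn11, a claudin of the Sertoli cell barrier and of myelin, was lower in testis at 141, 139 and 192 TPM, against 404, 389 and 542 TPM in brain. The iron carrier Trf and, in the Leydig list, Hsd11b1, which interconverts glucocorticoids, were also lower in testis.

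Testis 3 differed most in genes of tissue around the tubules. The 8 epididymis genes summed to 16.6, 69.1 and 442 TPM in testis and to 0.763, 0.642 and 0.982 TPM in brain. Of the 3 that were tested, 2 were higher in testis, and Crisp1, a secretory protein of the epididymis, had 6.10, 56.2 and 408 TPM in testis and 0, 0.115 and 0 TPM in brain. Genes of smooth muscle and fibroblasts summed to 160, 181 and 369 TPM in testis and to 99.2, 88.7 and 115 TPM in brain, with 7 of 13 higher in testis and 2 lower. Acta2, smooth muscle actin, had 70.8, 83.7 and 139 TPM in testis and 23.3, 18.05 and 27.2 TPM in brain. Without testis 3, 8 of the 13 were higher and 2 lower. The part of epididymal and stromal tissue in the other testis results was not tested, but the germ cell counts above were computed again without testis 3, an alternative chosen after the data were seen: 39 meiotic genes were then higher and 2 lower, 22 piRNA genes higher and 1 lower, and 16 spermatid chromatin genes higher and 1 lower. Without brain 3 the counts were 38 and 2, 22 and 0, and 15 and 1.

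Traces of each tissue's abundant genes were found in the other. The 136 genes over 500 TPM in testis and at least 256-fold higher there gave 697, 749 and 1365 reads in brain, or 30.1, 34.0 and 61.9 CPM (reads scaled by the library total to the same sum as TPM), and 76, 76 and 124 of the 136 genes had a read. The 35 genes over 500 TPM in brain and at least 256-fold lower in testis gave 48.3, 47.0 and 60.8 CPM in testis. Of 2533 tested genes with no read in brain 1 and brain 2, 496 had a read in brain 3, and of 2231 with no read in brain 2 and brain 3, 194 had a read in brain 1. For this reason levels, and not log2 differences, are given for most testis genes with a few reads in brain. No read in any brain library was found for 2037 of the 22836 tested genes, of which 902 averaged at least 10 TPM in testis. The most abundant of them were Cypt4, at 908, 925 and 1116 TPM in testis and at least 1273-fold higher there, and Cmtm2b, at 844, 873 and 916 TPM and at least 1591-fold higher. Conversely, 179 tested genes had no read in any testis library, of which 50 averaged at least 10 TPM in brain. Genes without a read in 1 tissue passed the read filter through the other tissue alone, so both counts depend on that filter.

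Many of the abundant testis genes belong to pairs, in which a germ cell copy stands beside a broadly expressed relative. Some germ cell copies are autosomal, often retroposed, relatives of X-linked genes, and the X chromosome is known to be silenced during male meiosis. For 31 such pairs the share of the germ cell copy in the summed TPM of both genes was computed. In 30 of the 31 it was higher in every testis library than in every brain library. For levels of single genes, a different measure from a share, such separation was seen for 42.9% of all tested genes. The pairs were chosen for known germ cell copies, so the count describes the pairs only. In testis the germ cell copy supplied more than 50% of the pair on average in 28 pairs, all 10 with an X-linked relative among them, and in brain in 2 pairs. In 22 pairs the share in brain was under 1%. With 3 libraries a side, the two-sided exact permutation p was 0.1 for each pair, the smallest it can be.

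Pgk2, the phosphoglycerate kinase of spermatogenic cells, supplied 97.6 ± 0.699% of the pair with the X-linked Pgk1 in testis and 0.0426 ± 0.0588% in brain (SD, n = 3 each, exact permutation p = 0.1). Pgk2 had 1132, 1058 and 890 TPM in testis and 0, 0.102 and 0.628 TPM in brain, whereas Pgk1 had 23.0, 21.2 and 29.3 TPM in testis and 576, 563 and 572 TPM in brain. Most transcripts for this enzyme step thus came from Pgk2 in testis and from Pgk1 in brain. The 250 bases before both gene starts are shown so that the copies can be compared, from RefSeq build GRCm38.p6, Pgk2 from chr17:40208610-40208859 on the minus strand and Pgk1 from chrX:106186850-106187099 on the plus strand, with CG dinucleotides in capitals.
Pgk2: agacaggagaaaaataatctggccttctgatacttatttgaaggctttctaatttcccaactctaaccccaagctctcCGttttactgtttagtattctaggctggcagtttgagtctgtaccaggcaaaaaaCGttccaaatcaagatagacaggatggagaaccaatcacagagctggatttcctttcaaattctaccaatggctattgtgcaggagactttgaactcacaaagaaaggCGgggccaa
Pgk1: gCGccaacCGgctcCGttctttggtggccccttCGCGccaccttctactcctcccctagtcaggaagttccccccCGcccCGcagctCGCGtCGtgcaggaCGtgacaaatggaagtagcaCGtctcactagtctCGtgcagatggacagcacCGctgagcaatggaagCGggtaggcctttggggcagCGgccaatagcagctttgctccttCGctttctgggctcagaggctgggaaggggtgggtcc
The Pgk2 window holds 3 CG dinucleotides and the Pgk1 window 17; 37.8% and 78.3% of all windows hold as many or fewer.

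Most other X-linked pairs had the same form. Pdha2, a subunit of pyruvate dehydrogenase, supplied 97.7% of its pair with Pdha1 in testis and 0.0147% in brain, and Rpl10l, a ribosomal protein, supplied 85.3% of its pair with Rpl10 in testis and 0.0205% in brain. Utp14b shifted less, supplying 64.2, 64.3 and 49.9% of its pair with Utp14a in testis and 36.5, 31.1 and 38.4% in brain. Cstf2t, a polyadenylation factor, went the other way, with 58.7 ± 2.72% in testis and 63.6 ± 1.11% in brain (SD, n = 3 each, exact permutation p = 0.1). Both genes of that pair were lower in testis, Cstf2t at 31.01 TPM on average against 81.3 TPM in brain. Energy metabolism held several autosomal pairs. Ldhc, the lactate dehydrogenase of sperm, had 4757, 4657 and 5373 TPM in testis and 0, 0 and 2.11 TPM in brain, and made up 87.3 ± 0.205% of its pair with Ldha in testis and 0.265 ± 0.458% in brain. Cox8c, a subunit of cytochrome oxidase, had 1538, 1605 and 1820 TPM in testis and 0, 0.354 and 0 TPM in brain, while Cox8a had 131, 143 and 245 TPM in testis and 2214, 2456 and 2372 TPM in brain. Ppp3r2, a regulatory subunit of calcineurin, supplied 94.6% of its pair with Ppp3r1 in testis and 0.0560% in brain. Among the smallest shifts were Aldoart1 with the longer of the Aldoa entries, at 32.4% in testis and 0% in brain, and Calr3 with Calr, at 19.9% in testis and 0.809% in brain.

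A pair of shares in brain rested on few reads or on 1 library. Aurkc, a meiotic kinase, supplied 76.4% of its pair with Aurkb in testis and 0, 0 and 35.6% in brain, where both genes were near the limit of detection. Gapdhs, the sperm glyceraldehyde dehydrogenase, had 1981, 2000 and 1530 TPM in testis and 9.91, 16.6 and 12.2 TPM in brain. Its partner Gapdh was listed at 1.83, 2.59 and 2.35 TPM in testis and 9.92, 11.7 and 176 TPM in brain. Gapdh has many near-identical pseudogenes, among which reads can be lost or split, so its levels are uncertain. Its difference was 2.22 lower on the log2 scale in testis without brain 3, and its call was lost without any 1 of the testis libraries (adjusted p = 0.0511 to 0.0623, limma).

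**Figure D2:**
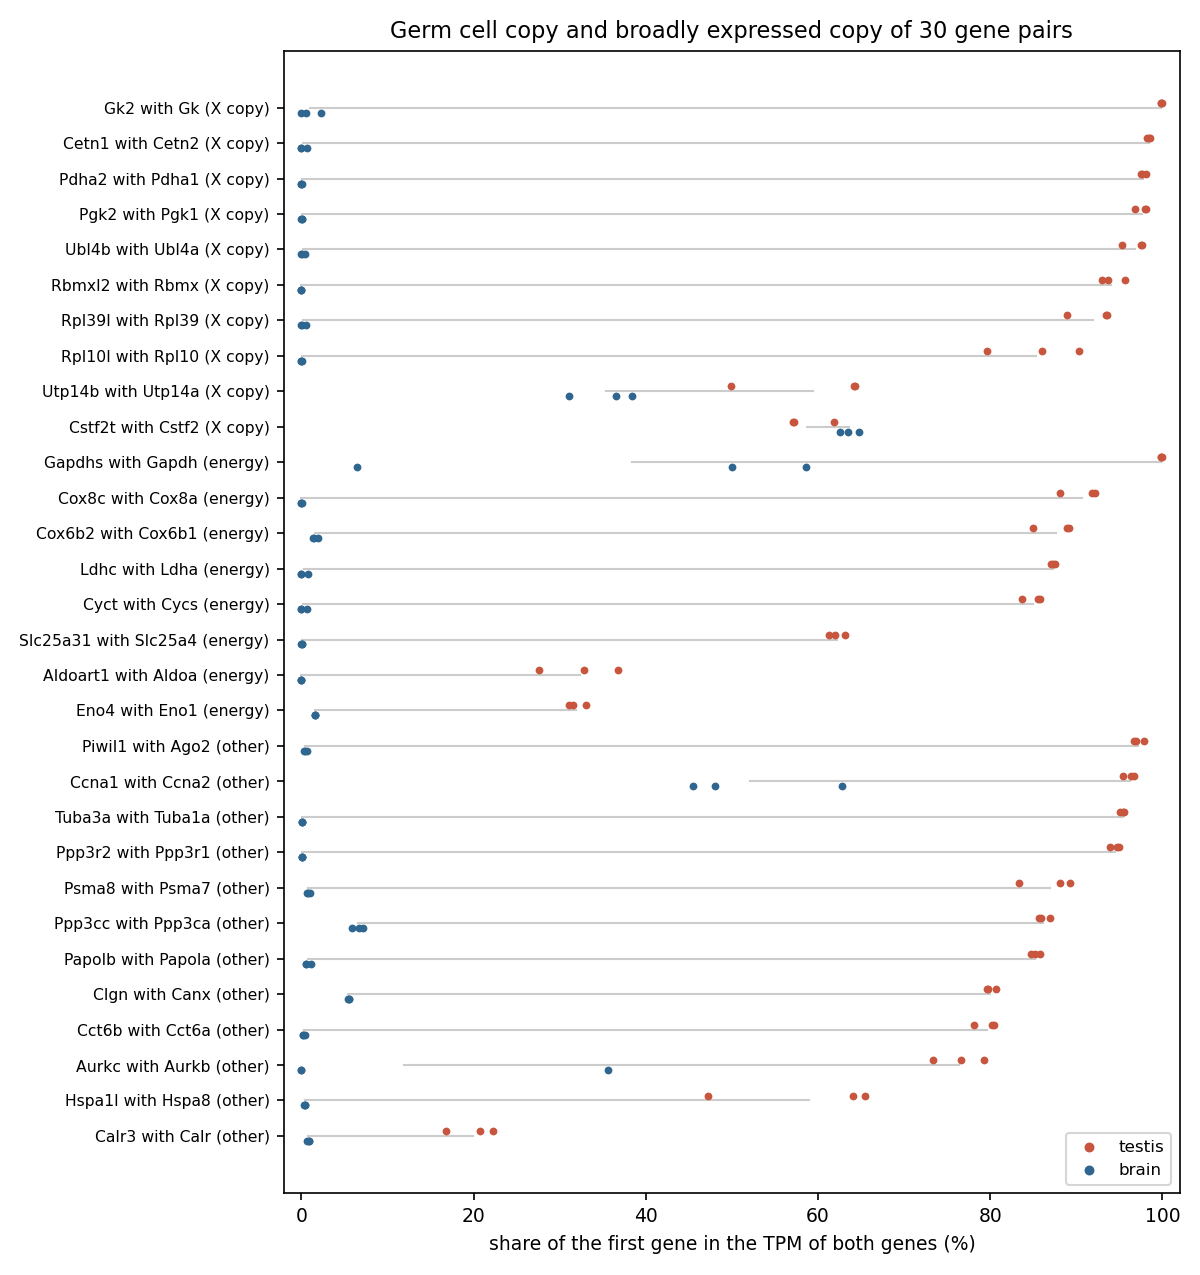
Share of the germ cell copy in the TPM of both genes, in percent, for 30 of the 31 pairs, with 1 point per testis library (red) and per brain library (blue) and a line between the group means. Testis points lie right of brain points in 29 of the 30 pairs drawn, Cstf2t with Cstf2 being the exception, and Gapdhs with Gapdh spreads from 6.49 to 58.6% among the brain libraries.

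At the other extreme were the genes of neurons, nearly all lower in testis. Separation of all testis libraries below all brain libraries was seen for 45.6% of tested genes. All 21 neuron structure genes, all 16 inhibitory neuron genes, all 21 GABA and glycine receptor genes and all 21 genes of postsynaptic scaffolds were lower in testis, with medians of −7.67, −7.68, −7.15 and −5.53 on the log2 scale. Of 30 genes of synaptic vesicles and release 29 were at least 8-fold lower in testis. The same numbers of these 5 lists were lower without testis 3 and without brain 3. Camk2a, the kinase of synaptic plasticity, had 0.179, 0.168 and 0.388 TPM in testis and 1090, 1168 and 1502 TPM in brain. Nrgn, a calmodulin-binding protein of dendrites, had 30.9, 34.7 and 26.2 TPM in testis and 2688, 2408 and 2858 TPM in brain, a log2 difference of −6.44 ± 0.13 (SE, limma, adjusted p = 6.16e-08). Snap25, which drives vesicle fusion, had 0, 0.0168 and 0.223 TPM in testis, and 894, 885 and 812 TPM in brain. Cplx1, a complexin that clamps fusion, had 2.50, 1.93 and 2.01 TPM in testis and 1350, 1392 and 1186 TPM in brain. The brain libraries never overlapped testis in any of these genes. In Camk2a the brain libraries spread from 1090 to 1502 TPM, with brain 3 the highest.

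The elongation factor Eef1a2, which replaces its ubiquitous relative in neurons and muscle, had 0.292, 0.383 and 0.242 TPM in testis and 2006, 1945 and 1911 TPM in brain. Sh3gl3, an endophilin, was the 1 vesicle gene higher in testis, at 80.5, 77.7 and 71.8 TPM against 26.2, 25.1 and 35.0 TPM in brain. Among postsynaptic genes Dlg4, the scaffold PSD-95, had 3.32, 3.25 and 3.41 TPM in testis and 456, 413 and 474 TPM in brain.

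Receptors and channels followed the neurons, with a few members higher in testis. Of 25 glutamate receptor genes 23 were lower in testis and 2 higher. Grin1, the obligatory NMDA receptor subunit, had 0.238, 0.258 and 0.286 TPM in testis and 155, 137 and 160 TPM in brain, and the AMPA receptor subunit Gria1 had 1.15, 0.811 and 0.730 TPM in testis and 285, 274 and 277 TPM in brain. The NMDA subunit Grin2d was higher in testis at 28.0, 30.1 and 26.1 TPM, against 18.9, 18.4 and 15.5 TPM in brain. Grin3b was also called higher, at a log2 difference of 1.49, but this was lost without brain 1, without testis 1 and without testis 2 (adjusted p = 0.0549, 0.0686 and 0.0681, limma). Of 28 voltage-gated channel genes 27 were lower in testis. The 1 channel higher in testis was Cacna1h, a T-type calcium channel that is also known from male germ cells, at 80.5, 82.4 and 47.9 TPM against 26.8, 24.4 and 29.2 TPM in brain.

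Peptide and monoamine genes were lower in testis in 29 of 30 cases. Sst, which encodes somatostatin, a peptide of inhibitory neurons, had no read in any testis library and 1086, 1185 and 1047 TPM in brain, which is at least 1832-fold higher in brain. Oxt, the hormone oxytocin, likewise had no read in testis and 78.4, 78.0 and 81.3 TPM in brain, at least 118-fold higher in brain. Penk, the enkephalin precursor, known to be transcribed in spermatogenic cells as well, differed far less, with 172, 164 and 198 TPM in testis and 392, 351 and 340 TPM in brain. Pomc, the precursor of corticotropin and endorphin, was higher in testis at 28.4, 32.1 and 49.9 TPM, against 16.4, 10.6 and 10.4 TPM in brain. Npy, a peptide of neurons and sympathetic nerves, spread widely in testis, at 0.645, 9.06 and 45.8 TPM, against 278, 297 and 299 TPM in brain. Its log2 difference of −5.42 became −3.83 without testis 1 and −6.80 without testis 3.

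The 250 bases before Sst are shown because Sst led the genes lower in testis and because this promoter is the textbook example of a cyclic AMP response element, the binding site of the factor CREB. They are from RefSeq build GRCm38.p6, chr16:23890845-23891094 on the minus strand, with the element TGACGTCA in capitals.
Sst: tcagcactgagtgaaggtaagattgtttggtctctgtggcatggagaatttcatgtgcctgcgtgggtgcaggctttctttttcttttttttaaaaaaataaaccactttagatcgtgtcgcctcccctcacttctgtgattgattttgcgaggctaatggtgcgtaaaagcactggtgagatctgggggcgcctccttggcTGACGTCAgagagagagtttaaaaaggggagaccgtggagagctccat
The element, the letters TGACGTCA, which read the same on both strands, begins 48 bases before the gene start. The same 8 letters occur in 508 of the 32851 RefSeq windows of 250 bases before a gene start, 1.55%, and the match is a description of the sequence only.

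Glial genes were lower in testis as well. Of 20 oligodendrocyte and myelin genes 19 were lower in testis, and of 17 astrocyte genes 16. Mbp, myelin basic protein, had 1.91, 2.33 and 2.34 TPM in testis and 1463, 1534 and 1668 TPM in brain, a log2 difference of −9.41 ± 0.10 (SE, limma, adjusted p = 2.14e-08). Fa2h, an enzyme of myelin lipids chosen after its value was seen, did not pass the test, with 75.6, 79.5 and 67.9 TPM in testis and 60.4, 61.7 and 77.0 TPM in brain. Its log2 difference of 0.17 became 0.28 without brain 3 and 0.74 on the deposited scale, and it was called higher in testis in both (adjusted p = 0.04 and 0.000652, limma). Slc1a2, the glutamate transporter of astrocytes, had 6.24, 5.40 and 5.26 TPM in testis and 630, 581 and 629 TPM in brain. Glul, glutamine synthetase, differed less, with 392, 373 and 353 TPM in testis and 1950, 2086 and 1926 TPM in brain.

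Genes that mark regions of the brain were lower in testis in 17 of 18 cases, and members from several regions were found in the brain libraries. Ppp1r1b, a signalling protein of the striatum, had 2.49, 1.71 and 2.62 TPM in testis and 613, 538 and 518 TPM in brain. Cerebellar genes were lowest in brain 3: Zic1 had 0.0855, 0.120 and 0.0885 TPM in testis and 161, 156 and 107 TPM in brain, Cbln1 had 4.81, 5.25 and 3.73 TPM in testis and 238, 240 and 160 TPM in brain, and Gabra6, a receptor subunit of cerebellar granule cells, had no read in testis and 161, 154 and 90.8 TPM in brain. Each was still far above testis in every brain library. All 15 activity-dependent early genes were lower in testis. Egr1 had 3.09, 3.28 and 3.71 TPM in testis and 188, 153 and 196 TPM in brain. Arc was the closest, at 188, 189 and 178 TPM in testis and 275, 240 and 210 TPM in brain, and its log2 difference of −0.38 changed sign to 0.20 on the deposited scale. Of 19 neural splicing genes 15 were lower in testis and 3 higher. Rbfox1 had 0.176, 0.137 and 0.303 TPM in testis and 288, 268 and 306 TPM in brain. The 3 higher genes are the repressors of neuronal exons and genes Ptbp1, Ptbp2 and Rest, of which Rest was chosen after its value was seen; Ptbp1 had 53.2, 55.4 and 48.1 TPM in testis and 19.5, 21.5 and 21.6 TPM in brain.

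**Figure D3:**
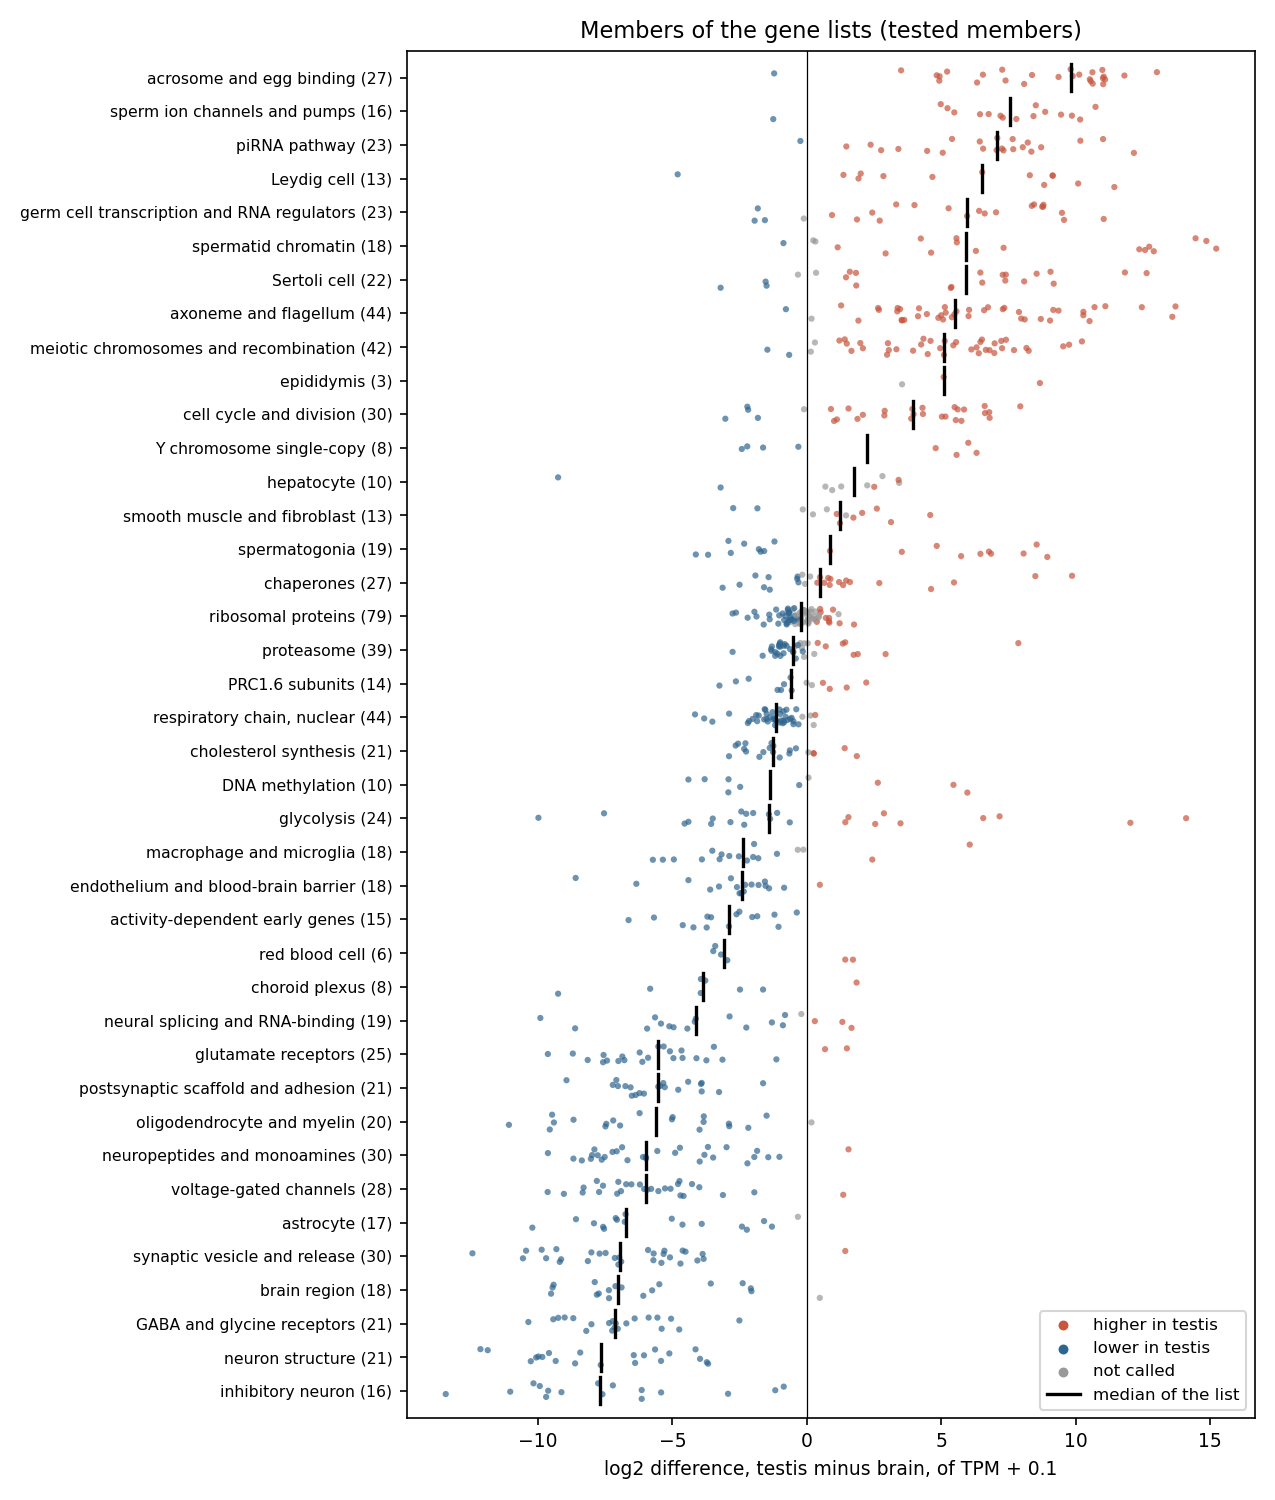
Log2 difference, testis minus brain, of each tested member of the 40 gene lists, on the scale of TPM plus 0.1, with list sizes in brackets and a bar at the median. Red points were called higher in testis, blue points lower and grey points were not called. Germ cell lists lie right of 0 with medians up to 9.81 and neuronal lists lie left with medians down to −7.68, while ribosomal, proteasome and PRC1.6 lists lie around 0.

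Cell types that both organs contain did not all go the same way. Of 18 endothelial and blood-brain barrier genes, 17 were lower in testis. Slc2a1, the glucose transporter of brain capillaries, had 7.32, 7.77 and 8.01 TPM in testis and 152, 175 and 169 TPM in brain, and Cldn5, a tight junction claudin, had 15.1, 14.02 and 20.7 TPM in testis and 83.7, 55.6 and 68.9 TPM in brain. The 1 gene called higher, the efflux pump Abcg2, had a log2 difference of 0.48, and its call was lost without brain 2, without testis 1 and without testis 2 (adjusted p = 0.0522, 0.0517 and 0.0530, limma). Of 18 macrophage and microglia genes, 14 were lower in testis and 2 higher. C1qa, a complement protein of microglia, had 29.7, 24.0 and 70.2 TPM in testis and 130, 151 and 164 TPM in brain. Aif1, widely used as a microglia marker, went the other way, with 487, 486 and 456 TPM in testis and 8.68, 6.15 and 6.64 TPM in brain. Mrc1, the mannose receptor of tissue macrophages, had 17.9, 16.5 and 16.5 TPM in testis and 2.78, 3.03 and 3.43 TPM in brain.

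Blood and barrier genes varied among libraries. Of 6 red blood cell genes 4 were lower in testis and 2 higher. Hbb-bs, a beta globin, had 43.1, 37.8 and 233 TPM in testis and 827, 1075 and 516 TPM in brain, and its log2 difference of −3.41 became −4.25 without testis 3. Globin genes are near-identical copies, so their single levels are uncertain. Of 8 choroid plexus genes, 7 were lower in testis and 1, Folr1, a folate receptor, was higher. Ttr, the thyroid hormone carrier made by the choroid plexus and the liver, had 3.79, 1.495 and 4.13 TPM in testis and 1426, 2118 and 1976 TPM in brain. Of 10 tested hepatocyte genes 2 were higher in testis and 2 lower; without brain 3, 8 were higher and 2 lower. Without testis 3, 0 were higher and 2 lower, and without any 1 of the other 4 libraries 0 or 1 were higher (limma, with 0 or 1 also at an unadjusted p under 0.05). By limma voom on all 6 libraries 6 were higher. Alb, albumin, was at 17.2, 8.07 and 19.6 TPM in testis and 0.0668, 0.208 and 43.5 TPM in brain, where brain 3 alone reached the testis levels. Alb did not pass the test with all libraries, and its log2 difference without brain 3 was 5.96 (adjusted p = 0.000102, limma).

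The PRC1.6 complex is a repressor known to keep germ cell genes silent in somatic cells. Transcripts of its subunits were found in both tissues, at unequal levels. Of 14 subunit genes, 4 were higher in testis, 8 lower and 2 not called. Pcgf6, its defining subunit, on chromosome 19 from 47033619 to 47050845, had 59.8, 58.3 and 68.5 TPM in testis and 19.9, 22.8 and 24.1 TPM in brain, a log2 difference of 1.48 ± 0.11 (SE, limma, adjusted p = 1.37e-05). Hdac1, a histone deacetylase, had 143, 144 and 131 TPM in testis and 28.4, 31.5 and 30.4 TPM in brain, and Rnf2, the ubiquitin ligase, had 33.5, 35.3 and 46.1 TPM in testis and 19.9, 19.7 and 23.7 TPM in brain. The testis libraries lay above the brain libraries in these 3 genes. The DNA-binding subunits E2f6 and Max and the adaptor Yaf2 were lower in testis. E2f6 had 4.10, 5.61 and 4.76 TPM in testis and 33.1, 29.0 and 29.3 TPM in brain, Max had 13.6, 13.6 and 19.045 TPM in testis and 71.6, 73.7 and 61.2 TPM in brain, and Yaf2 had 15.5, 16.1 and 23.3 TPM in testis and 173, 165 and 179 TPM in brain. On the deposited scale 6 of the 14 were higher and 5 lower, and the sign of Rybp, at −0.57, changed to 0.0022.

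DNA methylation genes were also unequal. Of 10 genes, 3 were higher in testis and 6 lower, and on the deposited scale 5 were higher and 5 lower. Uhrf1, which guides maintenance methylation in dividing cells, had 64.2, 66.0 and 58.5 TPM in testis and 0.845, 0.724 and 1.21 TPM in brain, and Dnmt3l, a cofactor of germ line methylation, had 10.4, 10.2 and 7.71 TPM in testis and 0.105, 0.0543 and 0.223 TPM in brain. The maintenance enzyme Dnmt1 was close to equal, with 31.01, 30.9 and 27.0 TPM in testis and 36.2, 35.8 and 36.5 TPM in brain, and its log2 difference of −0.29 changed sign to 0.28 on the deposited scale.

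Metabolic and housekeeping groups held genes called in both directions. Of 44 nuclear genes of the respiratory chain, 40 were lower in testis and 1 higher; on the deposited scale 29 were lower and 5 higher. Atp5b, a subunit of ATP synthase, had 357, 366 and 428 TPM in testis and 1052, 1116 and 1073 TPM in brain. The 1 higher gene, Ndufv2, had a log2 difference of 0.31, and its call was lost without any 1 of the brain libraries (adjusted p = 0.0584 to 0.104, limma). Of 24 glycolysis genes 9 were higher in testis and 15 lower, the 9 led by the sperm forms described above and by Pgam2, a phosphoglycerate mutase of muscle and sperm, with 2043, 2101 and 2280 TPM in testis and 21.6, 23.2 and 23.2 TPM in brain. Aldoa, an aldolase, had 250, 252 and 266 TPM in testis and 1307, 1237 and 1323 TPM in brain. The files list a second, shorter entry under this symbol, overlapping the first on the same strand, at 26.2, 26.5 and 17.8 TPM in testis and 1.76, 3.86 and 1.88 TPM in brain, so how their reads divide is uncertain.

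Of 27 chaperone genes 15 were higher in testis and 9 lower, against 21 and 6 on the deposited scale. Hspa2, a germ cell heat shock protein needed in meiosis, had 1223, 1232 and 1363 TPM in testis and 42.9, 56.0 and 57.8 TPM in brain, whereas its relative Hspa8 had 105, 105 and 180 TPM in testis and 977, 1056 and 1311 TPM in brain. Of 39 proteasome genes 8 were higher in testis and 24 lower, and on the deposited scale 15 were higher and 13 lower, so the list has no fixed direction. Psmc3, an ATPase of the proteasome cap, had 525, 535 and 648 TPM in testis and 153, 149 and 157 TPM in brain. Of 21 cholesterol synthesis genes 4 were higher in testis and 16 lower. Fdft1, squalene synthase, had 240, 232 and 250 TPM in testis and 64.2, 66.6 and 68.9 TPM in brain, while Hmgcs1, an early enzyme of the same path, had 38.7, 33.6 and 45.1 TPM in testis and 131, 121 and 147 TPM in brain. Of 79 ribosomal protein genes 10 were higher in testis, 31 lower and 38 not called; on the deposited scale 35 were higher and 11 lower, and without testis 3 on the TPM scale 10 were higher and 44 lower. Ribosomal protein genes also have many processed pseudogenes, which makes single levels uncertain.

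Testis and brain differed in how many genes were transcribed and in how evenly. At a level of at least 1 TPM with at least 10 reads, 19835 ± 157 genes were detected in testis and 16666 ± 151 in brain (SD, n = 3 each, exact permutation p = 0.1, the smallest possible). At 10 TPM the numbers were 10553 ± 35.6 in testis and 10596 ± 85.6 in brain (exact permutation p = 0.6), so the surplus of testis lay among genes of low level. Most of it was noncoding: 1649 ± 40.2 lincRNA genes were detected in testis and 540 ± 17.2 in brain, and 992 ± 39.9 antisense RNA genes in testis and 495 ± 25 in brain (SD, n = 3 each, exact permutation p = 0.1 for both). Protein-coding genes numbered 14824 ± 116 in testis and 14171 ± 88.4 in brain. The lincRNA genes made up 3.31 ± 0.145% of TPM in testis and 0.729 ± 0.0297% in brain. Of 1873 tested lincRNA genes 62.4% were at least 8-fold higher in testis, of 1159 antisense RNA genes 49.0%, and of 17091 protein-coding genes 16.0%. A gene with few reads in brain was tested only if it passed the read filter through testis, so these shares depend in part on the filter. The library kit named in the labels does not keep the strand, so reads of an antisense gene and of its partner cannot be told apart where they overlap.

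Among nuclear genes, testis RNA was concentrated in fewer genes than brain RNA. The 10 most abundant nuclear genes of each library made up 8.70 ± 1.06% of TPM in testis and 3.10 ± 0.103% in brain, and 814 ± 28.7 genes made up 50% of the nuclear TPM in testis and 1098 ± 29.5 in brain (SD, n = 3 each, exact permutation p = 0.1 for both). The most abundant nuclear genes of brain were Fth1, ferritin heavy chain, at 368, 392 and 639 TPM in testis and 4491, 4646 and 4479 TPM in brain, and Rplp1, a protein of the ribosomal stalk, at 1657, 1724 and 2334 TPM in testis and 3393, 3918 and 2922 TPM in brain. They were followed by Cpe, a carboxypeptidase that processes peptides, at 131, 148 and 237 TPM in testis and 3330, 3355 and 3318 TPM in brain. Mitochondrial genes supplied 1.93 ± 0.263% of TPM in testis and 12.7 ± 0.632% in brain, and all 25 that were tested were lower in testis. Genes abundant in testis were shorter than those abundant in brain, by the listed gene length. Transcript lengths were not measured. The mean gene length weighted by TPM was 2617 ± 73.8 bases in testis and 3626 ± 50.5 bases in brain. The median length of protein-coding genes was 2184 bases for those at least 8-fold higher in testis and 4642 bases for those at least 8-fold lower. It was 4209.5 bases for the other tested protein-coding genes.

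**Figure D4:**
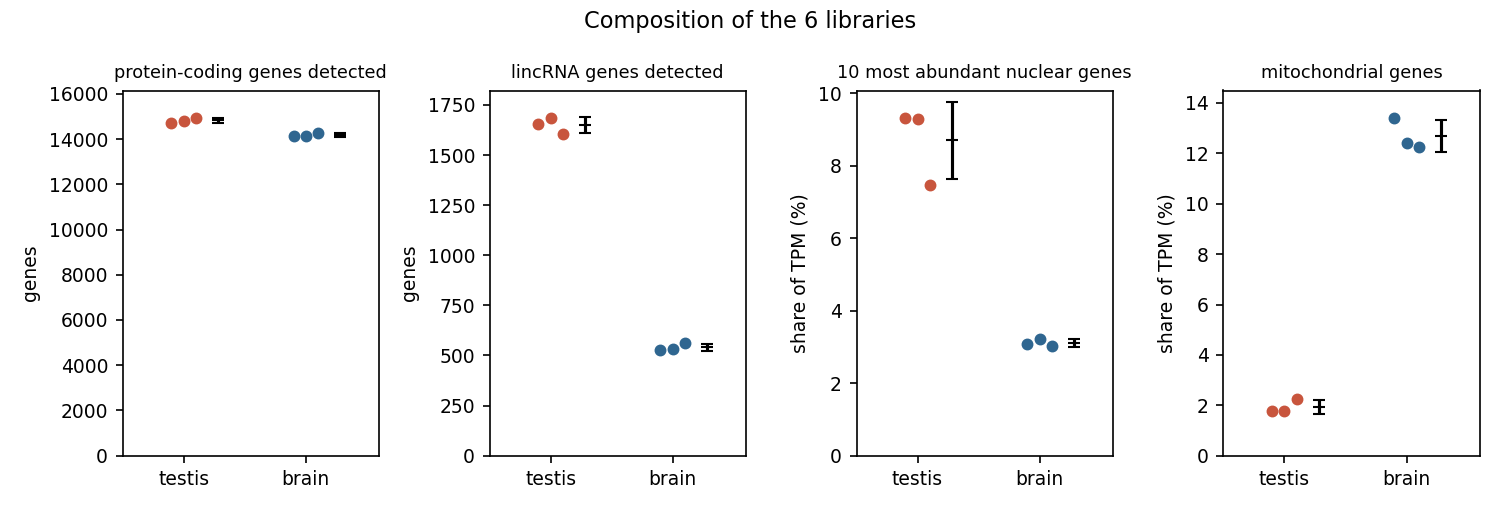
Protein-coding genes and lincRNA genes detected at 1 TPM with 10 reads, and shares of TPM from the 10 most abundant nuclear genes and from mitochondrial genes, with 1 point per testis library (red) and brain library (blue) and the mean with SD beside them. The lincRNA count is 1607 to 1687 in testis and 528 to 560 in brain, and the mitochondrial share is 1.76 to 2.23% in testis and 12.3 to 13.4% in brain.

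In both directions, the X chromosome had a larger share of genes at least 8-fold different than the pooled autosomes. Of 901 tested X-linked genes, 34.1% were at least 8-fold higher in testis and 21.9% at least 8-fold lower. Of 21829 autosomal genes, 23.2% were at least 8-fold higher in testis and 14.02% at least 8-fold lower. The same held among protein-coding genes, with 30.3% higher and 24.2% lower on the X and 15.2% higher and 15.8% lower on the autosomes. Among single autosomes, chromosome 18 had a slightly larger share of tested genes at least 8-fold lower than the X, at 22.6%. The median log2 difference was −0.70 on the X and −0.10 on the autosomes. The median X-linked level itself lay 0.67 ± 0.11 below the autosomal one in testis and 0.79 ± 0.04 below it in brain, on the log2 scale (SD, n = 3 each, exact permutation p = 0.1). The median of differences and the difference of medians thus have opposite signs, and no direction for the chromosome as a whole was drawn from either.

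On the Y chromosome 66 of 72 tested genes were at least 8-fold higher in testis. Many of them are members of multi-copy families with near-identical sequence, whose counts are uncertain. Genes without reads in brain passed the read filter through testis alone. Of 8 single-copy Y genes 4 were higher in testis and 4 lower. Uba1y, a ubiquitin-activating enzyme, had 16.4, 14.4 and 10.6 TPM in testis and 0.155, 0.120 and 0.330 TPM in brain. The other 3 higher genes, Zfy1, Zfy2 and Usp9y, chosen after their values were seen, had no read in brain and were at least 37.2-fold, 50.1-fold and 44.5-fold higher in testis. The 4 lower genes included the RNA helicase Ddx3y at 9.85, 10.2 and 9.42 TPM in testis and 45.2, 45.2 and 47.9 TPM in brain, and the histone demethylase Uty at 2.21, 1.95 and 1.81 TPM in testis and 6.65, 6.65 and 5.84 TPM in brain. The translation factor gene Eif2s3y differed least, with 30.2, 29.9 and 31.2 TPM in testis and 34.5, 37.6 and 42.3 TPM in brain, and its log2 difference of −0.32 changed sign to 0.25 on the deposited scale.

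**Figure D5:**
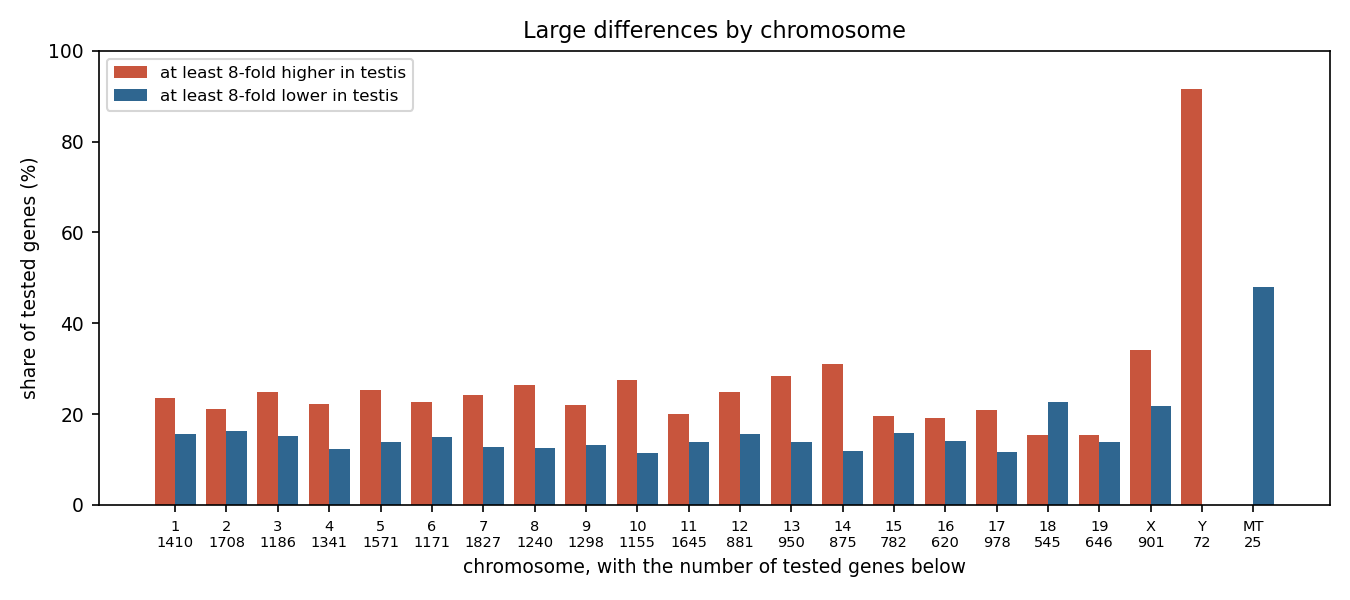
Share of tested genes, in percent, that were at least 8-fold higher (red) or at least 8-fold lower (blue) in testis than in brain, for each chromosome, with the number of tested genes under its name. The X chromosome has 34.1% and 21.9%, the Y chromosome 91.7% and 0%, and the mitochondrial genes 0% and 48%.

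Among autosomes, chromosomes 14 and 18 lay at the ends. On chromosome 14, 30.97% of 875 tested genes were at least 8-fold higher in testis and 11.8% at least 8-fold lower, with a median log2 difference of 0.46. On chromosome 18, 15.4% of 545 tested genes were at least 8-fold higher in testis and 22.6% at least 8-fold lower, with a median of −0.77. Chromosome 16 held the protamine genes and Tnp2, and its summed level was 81950, 83344 and 68564 TPM in testis and 26479, 26567 and 27140 TPM in brain.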

How the data were processed

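Poly-A RNA of 3 WT testis and 3 WT brain libraries was compared, with groups taken from the labels. Per the submitters' processing notes, the tools were HISAT2 2.0.5 for alignment, featureCounts 1.5.0-p3 and DESeq2 1.16.1, with the build mm10. The authors deposited FPKM for 52636 genes per library. The design had been written for this unit. The low values were whole multiples of 1 step, and 100% of values gave whole reads within 0.01 reads, so reads and totals were recovered. The library sizes behind the deposited FPKM matched size factors over all 18 libraries (14876 genes), which carry the make-up of a tissue, so TPM per library was computed here from the recovered reads.

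Genes that reached 10 reads in 3 or more of the 6 libraries were fitted with limma 3.58.1 (R 4.3.3) on log2(TPM + 0.1) with a mean-variance trend, and p-values were adjusted by Benjamini-Hochberg over all 22836 tested genes. This filter passes a gene through the tissue where it is high, so list counts describe tested members only. Log2 differences are testis minus brain, on the TPM + 0.1 scale, which understates low genes. Single values per library used two-sided exact permutation tests. On simulated reads for this comparison (22615 genes run), 79% of 2-fold and 100% of 8-fold changes were recovered, and 16 of 195 calls were false. The simulation gave both tissues the same profile and a fixed spread, and changed only a small set of genes above the lowest levels. These rates therefore need not hold for the real comparison, in which most genes differed. Intervals of log2 differences come from the spread between libraries, and floors of 3 reads cover counting error only.

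The members and the 40 gene lists were chosen with earlier results of these data known. Named genes are the 4 most abundant tested members of each list and up to 2 called against its majority, the 10 largest differences in each direction among genes of at least 10 TPM, the 10 most abundant nuclear genes of each tissue, both genes of 31 pairs, the PRC1.6 subunits, and the 5 most abundant genes of each tissue without a read in the other. Alternatives were 4 other scalings, 2 other pseudocounts, 2 other filters, limma voom, a replicate block and each library left out in turn. Of the symbols that occur more than once (99), Aldoa was named, by its longer entry, and no other. A few named genes, and 1 pair in the plot of pairs, are not reported here. Other steps ran in Python 3.11.15 (scipy 1.17.1, numpy 2.4.6, pandas 2.3.3), and figures were drawn with matplotlib 3.10.9.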

Additional observations from a re-analysis of the deposited data

How the results depend on the processing

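Across 16 alternatives the counts of genes called higher and lower in testis stayed within 1.5 times their values of 9642 and 10223. With each library left out in turn, 9314 to 9658 genes were higher in testis and 9835 to 10506 lower, 5401 to 5487 were at least 8-fold higher and 3252 to 3347 at least 8-fold lower. The genes at least 8-fold lower in testis numbered 2134 with FPKM as deposited, and those at least 8-fold higher 3425 with a pseudocount of 1. The X-linked minus autosomal median log2 difference was −0.47 with a pseudocount of 1 and 0.14 with no filter on low values, where 38698 genes were tested, and it lay between −0.605 and −0.563 with a library left out; the cause of these shifts was not tested. The scaling moved the median log2 difference of all genes to 0.42 (deposited), 0.38 (size factors over the 6 libraries), 0.33 (RPKM on the plain total), 0.41 (limma voom) and −0.28 (TPM over nuclear genes), and the share of calls that were higher in testis lay between 45.9% and 58.3% under these scalings, against 48.5%. Of 271 named genes 6 changed sign under one of these scalings, 20 lost their call and 11 gained one under some alternative. In the order deposited, 6-library size factors, RPKM and voom, the log2 differences were 0.1958, 0.1540, 0.0930 and 0.1544 for Arc, 0.2242, 0.1826, 0.1217 and 0.1829 for Cct6a, 0.2820, 0.2410, 0.1804 and 0.2434 for Dnmt1, 0.2504, 0.2093, 0.1488 and 0.2111 for Eif2s3y, and 0.3217, 0.2813, 0.2213 and 0.2864 for Tdrkh; Rybp reached 0.0022 on the deposited scale. The median of the proteasome list was 0.05 and that of the ribosomal list 0.33 on the deposited scale. By reads in place of TPM, the germ cell copy supplied 96.7% of the Pgk2 pair, 76.7% of the Ldhc pair and 36.8% of the Cstf2t pair in testis, against 0.0302%, 0.127% and 41.6% in brain. At 0.1 TPM, 22069 genes were detected in testis and 17788 in brain. Libraries with the same replicate number did not deviate together (correlations of 0.036, 0.023 and −0.019, against −0.048 to 0.021 for other pairs). Whether equal numbers mark the same animal cannot be decided from this, because tissues of the same animal need not deviate together. With the replicate block 9522 genes were higher and 10066 lower, and 5446 and 3272 by at least 8-fold. Counting error limits genes near the floor of 3 reads per library.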

Other observations

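Abundant testis genes outside the groups above included Tcp11, a protein of the sperm tail, with 2825, 2847 and 2510 TPM in testis and 0.524, 1.17 and 2.63 TPM in brain, and Gm5617, a gene without a given name, with 3527, 3336 and 3840 TPM in testis and 28.0, 39.7 and 23.5 TPM in brain. Tuba3a, an alpha tubulin of testis, had 2223, 2217 and 2848 TPM in testis and 0.207, 0.538 and 0.994 TPM in brain, whereas Tuba1a, the alpha tubulin of growing neurons, had 103, 107 and 146 TPM in testis and 1628, 1516 and 1749 TPM in brain. The chaperone Clgn, needed to fold sperm surface proteins, had 469, 455 and 491 TPM in testis and 14.8, 16.0 and 15.6 TPM in brain, and its relative Canx had 120, 116 and 118 TPM in testis and 262, 275 and 266 TPM in brain. All 3 testis libraries lay on one side of all 3 brain libraries in each of these 6 genes.

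In brain, the secreted matrix protein Sparcl1 had 40.6, 36.8 and 60.8 TPM in testis and 2398, 2462 and 2384 TPM in brain, and the lipid carrier Apoe had 164, 162 and 324 TPM in testis and 2780, 3067 and 2755 TPM in brain. Calm3, a calmodulin gene, had 579, 625 and 754 TPM in testis and 3093, 3284 and 3037 TPM in brain. In each of the 3, testis 3 was the highest testis library.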
